A study of Mus musculus with 6 samples.

Results

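PU.1 is an ETS-family transcription factor required for the myeloid lineage, and in macrophages it binds enhancers and promoters across the genome. Acetylation of histone H3 at lysine 9 (H3K9Ace) marks active promoters and enhancers. It tends to cover a stretch of nucleosomes around a site rather than a point. C/EBPβ, a leucine-zipper factor of both lineages, often binds beside PU.1 in macrophages, and PPARγ is a lipid-activated nuclear receptor, the master regulator of adipogenesis, that macrophages express as well. The regions described here are macrophage PU.1 sites that carried no called C/EBPβ and lay in chromatin acetylated in macrophages and also in adipocytes, a cell type in which PU.1 was not mapped. The comparisons ask how wide the acetylated stretch is in each cell type, where in it PU.1 sits, and how often PPARγ is there.

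The sites were all autosomal PU.1 regions that overlapped a macrophage H3K9Ace region and an adipocyte H3K9Ace region by at least 1 bp and overlapped no C/EBPβ region. There were 6401 of them, 14.1% of the 45485 autosomal PU.1 regions (95% Wilson interval 13.8 to 14.4), out of 46356 PU.1 regions in the whole list. A called H3K9Ace region is termed a domain below. Macrophages came from male C57BL/6 mice by peritoneal lavage 3 days after injection of 1 ml of 3% thioglycollate, followed by 24 h of adherence, with at least 4 animals pooled per sequencing run. The adipocytes were grown from 3T3-L1, an established mouse preadipocyte line, and stand for 1 cell line rather than fat tissue. PU.1, C/EBPβ, PPARγ and H3K9Ace were mapped in macrophages, and PPARγ and H3K9Ace in adipocytes, with 1 library for each. Macrophage PPARγ joined 2 runs. No other agent or genotype was named for either cell type. The lists hold no expression values, so the cell types could not be checked against marker genes.

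Because the choice of the sites used the PU.1, C/EBPβ and H3K9Ace lists, all values of these lists are descriptions, and only PPARγ is independent of the choice. With 1 library per target there are no replicates, no p-value was computed, and every interval covers counting error only and treats regions as independent. Sequencing depth is unknown. The sites came from lists of positions in mouse build mm8. Positions relative to genes, and sequences, were not used here.

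The remaining autosomal PU.1 regions fell into classes that serve for comparison. Of the 32405 regions without C/EBPβ, 4869 were acetylated only in macrophages, 2273 only in adipocytes and 18862 in neither. Of the regions with C/EBPβ, 3409 were acetylated in both cell types. Among PU.1-alone regions acetylated in macrophages, 56.8% (55.9 to 57.7) were also acetylated in adipocytes. Among those acetylated in adipocytes, 73.8% (72.9 to 74.7) were also acetylated in macrophages. PU.1 regions with C/EBPβ that were acetylated in macrophages lay in adipocyte domains in 45.9% of cases (44.8 to 47.0).

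Most sites were well inside the limits that chose them. In macrophages 89.8% lay wholly within the domain and 1.61% overlapped it by under 50 bp, and in adipocytes these shares were 92.1% and 1.09%. The smallest overlap was 1 bp in each. Just outside the rule, 57 of the regions acetylated only in macrophages had an adipocyte domain under 50 bp away, and 85 of those acetylated only in adipocytes had a macrophage domain that near. The median gap to the missing domain was 13691 bp in the first of these classes and 2039 bp in the second. C/EBPβ was absent from the site itself but not always from its surroundings. It lay under 50 bp away at 124 sites, under 1000 bp away at 25.1% of them, and 30.9% of the macrophage domains concerned held a C/EBPβ region elsewhere. That share (29.7 to 32.2) was somewhat above the 26.95% (26.5 to 27.4) of all autosomal macrophage domains that held one. Domains of sites acetylated only in macrophages had 24.9% (23.6 to 26.2). Both of these sets of domains were narrower. The PU.1 regions themselves were of ordinary width, with a median of 242 bp (239 to 245) against 239 bp over all autosomal PU.1 regions and 317 bp at regions with C/EBPβ acetylated in both cell types.

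The share of macrophage-acetylated PU.1-alone regions that were acetylated in adipocytes too varied between chromosomes. It was lowest on chromosome 13, at 45.9% (41.5 to 50.3), and on chromosome 1, at 46.1% (42.5 to 49.7). Chromosome 19 had the highest share, 67.1% (62.2 to 71.7). Macrophage domains in general followed a like order: 37.5% of those on chromosome 13, 36.9% on chromosome 1 and 61.1% on chromosome 19 overlapped an adipocyte domain. The chromosomes at either end were thus the same for these sites and for macrophage domains at large.

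Domains at these sites were wide in both cell types. Taken per site, the macrophage domain had a median width of 2350 bp (2350 to 2400), with 80% of sites between 1100 and 4950 bp. Sites acetylated only in macrophages lay in narrower domains, with a median of 1150 bp (1150 to 1200), and sites with C/EBPβ acetylated in both cell types lay in domains of 2450 bp (2400 to 2550). The adipocyte domain had a median of 3800 bp (3750 to 3900), with 80% of sites between 1200 and 10550 bp, against 2100 bp (1950 to 2300) where acetylation was in adipocytes only. At sites with C/EBPβ acetylated in both cell types the adipocyte median was 3500 bp (3350 to 3600). Over all autosomal domains the medians were close together, 1050 bp in macrophages and 1000 bp in adipocytes.

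**Figure D1:**
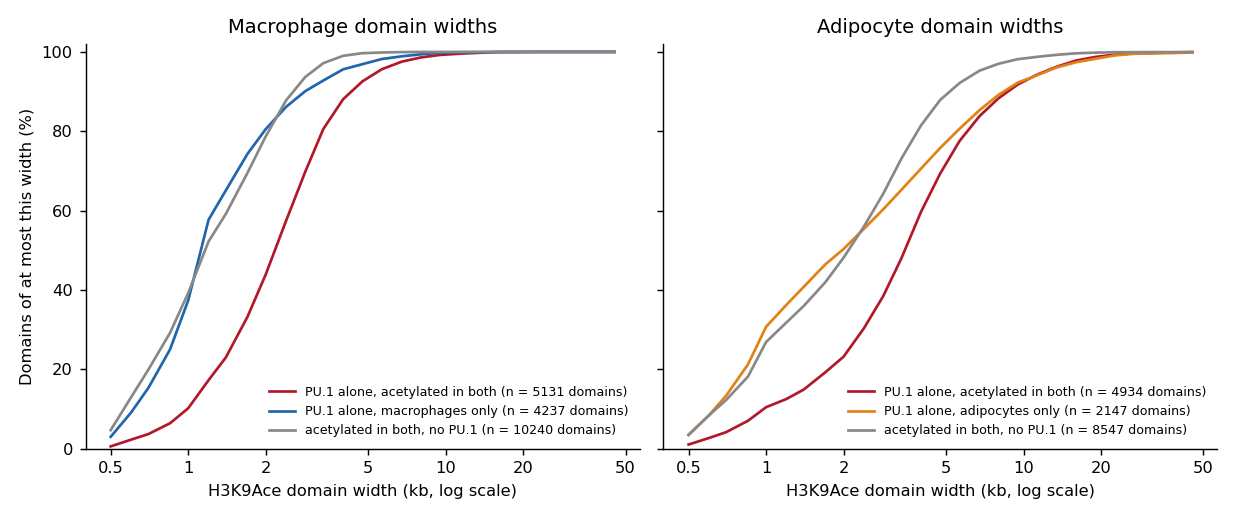
Cumulative share of distinct H3K9Ace domains (y axis, percent) up to a given width (x axis, kb, log scale) in macrophages (left) and adipocytes (right). Red lines are domains holding PU.1-alone sites acetylated in both cell types, blue and orange lines are domains of PU.1-alone sites acetylated in one cell type, and grey lines are domains acetylated in both cell types without any PU.1. Of the lines drawn, the red ones lie to the right, with medians of 2200 bp in macrophages and 3500 bp in adipocytes. Domains of sites with C/EBPβ are not drawn.

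The same order held when each domain was counted once. The 5131 distinct macrophage domains had a median of 2200 bp (2150 to 2250), and the 4934 distinct adipocyte domains 3500 bp (3400 to 3550). Domains acetylated in both cell types that held no PU.1 region at all were narrower, with medians of 1150 bp in macrophages (n = 10240) and 2100 bp in adipocytes (n = 8547). The plot of cumulative widths shows this shift, and in adipocytes the domains of sites acetylated there only meet those of sites acetylated in both cell types at the widest end. All domains acetylated in both cell types, with or without PU.1, had medians of 1550 bp in macrophages (n = 17780) and 2650 bp in adipocytes (n = 15983). Distinct domains of sites with C/EBPβ acetylated in both cell types had medians of 2250 and 3200 bp.

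A wide domain offers more sequence on which a PU.1 region can fall, so the number of sites per megabase was compared across widths. Among macrophage domains that overlapped an adipocyte one, 10.5% of those from 500 to under 1000 bp held a site, 24.2% from 1000 to under 2000 bp, 42.6% from 2000 to under 4000 bp and 67.2% from 4000 bp up. Per megabase of domain, the density went from 151.6 sites in the narrowest class to 190.0, 200.6 and 205.4 in the wider ones. In adipocytes the density fell with width, from 230.8 sites per megabase in the narrowest class to 165.0, 133.1 and 97.1. Counted this way, wide adipocyte domains held fewer such sites per base pair than narrow ones, and wide macrophage domains did not. The rule bears on this contrast, since a site must touch a domain of each cell type while the megabases count whole domains. At these sites the stretch acetylated in both cell types was a median of 64.0% of the adipocyte domain and 100.0% of the macrophage domain. These densities are descriptions only.

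At the same site the adipocyte domain was usually the wider. It exceeded the macrophage domain at 5045 of 6401 sites, 78.8% (77.8 to 79.8), the macrophage domain was wider at 1285, and 71 had equal widths. The median ratio of adipocyte to macrophage width was 1.49 (1.46 to 1.51), and it passed 2 at 31.0% of sites and 5 at 7.76%. At sites with C/EBPβ acetylated in both cell types the ratio was 1.31 (1.27 to 1.35). Macrophage domains that overlapped an adipocyte domain and held no PU.1 had a ratio of 1.93 (1.90 to 1.98).

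Since a ratio over macrophage width falls as that width grows, it was also compared within classes of macrophage width. From the narrowest class to the widest the ratio at these sites was 2.57, 1.67, 1.47 and 1.15. It lay below that of shared domains without PU.1 in each class (3.47, 1.80, 1.55 and 1.38) and above that of sites with C/EBPβ (2.21, 1.48, 1.31 and 1.08). The measures are not alike. Shared domains without PU.1 were each counted once, with the adipocyte domain that overlapped them most. Sites took the adipocyte domain at PU.1 and could repeat a domain. In the widest class, domains without PU.1 reached at most 7950 bp and those of the sites 20150 bp. The 95% intervals of these sites and of shared domains without PU.1 did not overlap in any class, though from 4000 bp up they nearly met (1.12 to 1.21 against 1.22 to 1.495). Those of these sites and of sites with C/EBPβ overlapped only under 1000 bp (2.17 to 2.93 against 1.83 to 2.53). Each cell type was represented by 1 H3K9Ace library, so a difference in width between cell types cannot be told apart from a difference in depth or in how far the caller extended regions. The adipocyte list covered 98.7 Mb of the autosomes and the macrophage list 52.3 Mb.

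**Figure D2:**
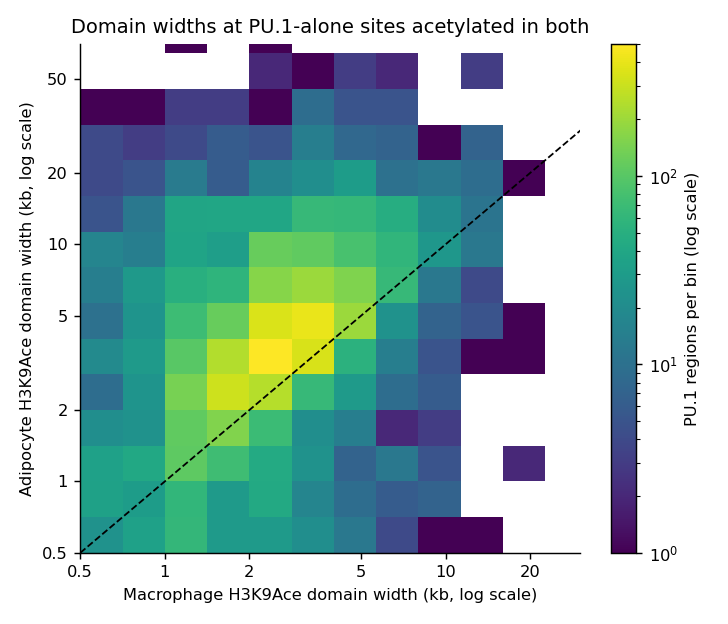
Number of PU.1-alone sites (colour, log scale) by the width of their macrophage H3K9Ace domain (x axis, kb, log scale) and adipocyte H3K9Ace domain (y axis, kb, log scale), with the dashed line at equal widths. Most sites lie above the line, as 78.8% of them had the wider domain in adipocytes.

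Widths in the different cell types went together only loosely. Across the 6401 sites, many of which share a domain, Spearman's rho between the widths was 0.442 and Pearson's r of the log2 widths was 0.410. The macrophage domain lay inside the adipocyte domain at 63.8% of sites (62.7 to 65.0), the reverse held at 12.3%, and at 23.7% each reached past the other. The stretch acetylated in both cell types had a median of 2150 bp. It made up a median of 100.0% of the macrophage domain and 64.0% (62.8 to 65.2) of the adipocyte domain. PU.1 was centred in this common stretch at 92.9% of sites (92.2 to 93.5).

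Sites often shared a domain. In macrophages 4116 domains held 1 site, 823 held 2, 142 held 3 and 50 held 4 or more, and the median width rose over these groups from 2050 to 2800, 3900 and 5725 bp. A site was the only PU.1 region of any class in its macrophage domain in 52.6% of cases. A single adipocyte domain spanned sites of 2 or more macrophage domains in 216 cases, while 47 macrophage domains spanned sites of 2 or more adipocyte domains.

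The extremes of width show how far the domains could differ. The widest macrophage domain that held any of the sites lay on chromosome 4 at 144156301 to 144176450, 20150 bp, and held 4 of the sites, each in another adipocyte domain of 1100 to 4000 bp. Among them the site at 144175492 to 144175738 had a ratio of 0.0546. The lowest ratio of all, 0.0435, was at 62081731 to 62081970 on chromosome 14, where a macrophage domain of 13800 bp met an adipocyte domain of 600 bp and the PU.1 centre lay just past the end of the latter. In the other wide macrophage domains, on chromosome 12 at 87770951 to 87787950 (17000 bp) and on chromosome 2 at 44925251 to 44941000 (15750 bp), the adipocyte domain was of similar width, 20100 and 17050 bp.

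The widest adipocyte domain ran over 67400 bp on chromosome 6, from 52086851 to 52154250. It held only 2 of the sites, at its left end, in macrophage domains of 2050 and 1000 bp, and the second of these gave the highest ratio, 67.4. An adipocyte domain of 59050 bp on chromosome 14, at 24289551 to 24348600, held 10 sites, more than any other, spread over macrophage domains of 2400 to 13900 bp. The next widest that held a site, of 50400 bp on chromosome 6 at 114810951 to 114861350, held 1 site. High ratios of 57.8 and 51.4 were also found at 115947669 to 115947907 on chromosome 6 and at 28345892 to 28346061 on chromosome 2, in macrophage domains of 600 and 500 bp.

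Dense groups of sites did not need such widths. The macrophage domain on chromosome 11 at 120393801 to 120399000 was 5200 bp wide and held 6 sites, and its adipocyte domain of 13350 bp held 9. The 6 sites of a 12800 bp macrophage domain on chromosome 10, at 59671101 to 59683900, lay in 1 adipocyte domain of 10150 bp. On chromosome 4 at 107956201 to 107959950, 5 sites shared a macrophage domain of 3750 bp and an adipocyte domain of 3900 bp that ended at the same base pair and started at 107956051.

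Within the domains, taken over all widths, the sites lay nearer the middle than an even spread would give. The rule bears on this, since a site must also touch the other cell type's domain, which can cover only part of this one. An even spread is thus a reference and need not be what the rule alone would give. The central 50% of the macrophage domain held the PU.1 centre at 58.4% of sites (57.2 to 59.6), where an even spread would give 50%. In the adipocyte domain the share was 59.6% (58.4 to 60.8). The outermost 10% at each end, together with centres just beyond the edge, held 14.0% in macrophages and 12.9% in adipocytes, where an even spread would give 20%. The middle 20% held 23.9% and 24.6%. The excess over an even spread was broad. Each of the bins between 0.2 and 0.8 of the domain's length, when it is cut into 10, held 10.8 to 12.4% of the sites in either cell type. The PU.1 centre lay outside the domain at 4.36% of sites in macrophages and at 3.13% in adipocytes. Domains under 1000 bp did not show the central excess. In them 47.1% of sites (42.65 to 51.6) were in the central 50% in macrophages and 42.0% (37.6 to 46.6) in adipocytes. The outermost 10% at each end, with centres beyond the edge, held 31.1% and 31.6% there.

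**Figure D3:**
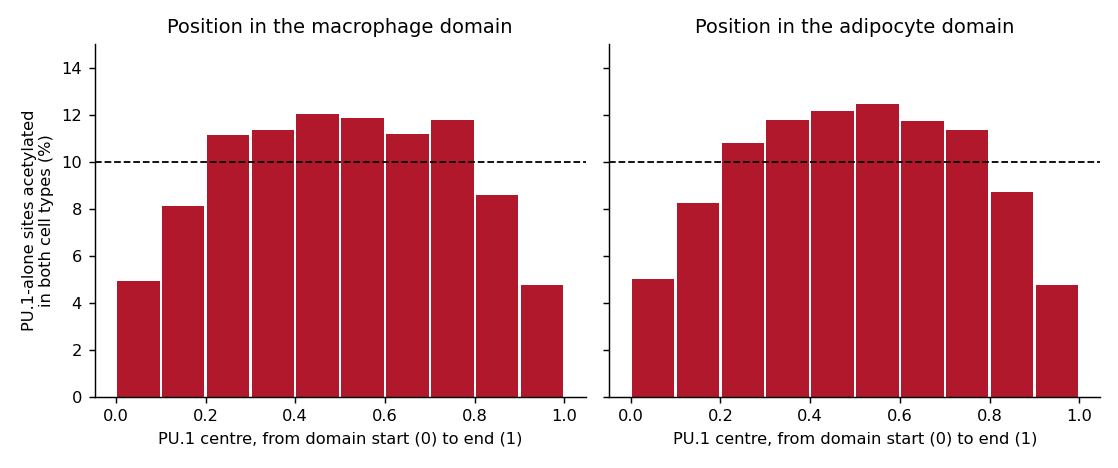
Share of the 6401 PU.1-alone sites acetylated in both cell types (y axis, percent) by the position of the PU.1 centre along its macrophage (left) or adipocyte (right) H3K9Ace domain, in 10 equal bins from the start (0) to the end (1). The dashed line marks 10%, an even spread; the end bins hold 4.77 to 5.02% and the bins from 0.2 to 0.8 hold 10.8 to 12.4%, and centres outside the domain are not drawn.

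PU.1 was no more central in the domain of its own cell type. Relative to width, the centre was nearer the middle of the macrophage domain at 49.2% of sites (48.0 to 50.4) and nearer that of the adipocyte domain at 50.7% (49.5 to 52.0). It lay on the same side of both middles at 74.3% of sites and in the central 50% of both domains at 42.1%. In absolute terms the median offset from the middle was 449.5 bp in macrophages and 678.5 bp in adipocytes. The nearer edge was at a median of 641 bp (621 to 660) in macrophages and 1042 bp (1011 to 1072) in adipocytes, and the farther edge at 1652 and 2656 bp.

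The classes of PU.1 regions differed in position, but the rule bears on this, since it sorts a region by whether the other cell type's domain reaches it, and these values are descriptions only. Of the sites acetylated only in macrophages, 50.9% were in the central 50% of the macrophage domain. Of those acetylated only in adipocytes, 43.1% were in the central 50% of the adipocyte domain, and in adipocyte domains under 1000 bp, 48.5% against 42.0% of the sites acetylated in both cell types. Sites that carried C/EBPβ and were acetylated in both cell types were central in 62.5% of cases in macrophage domains and 58.1% in adipocyte domains.

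**Figure D4:**
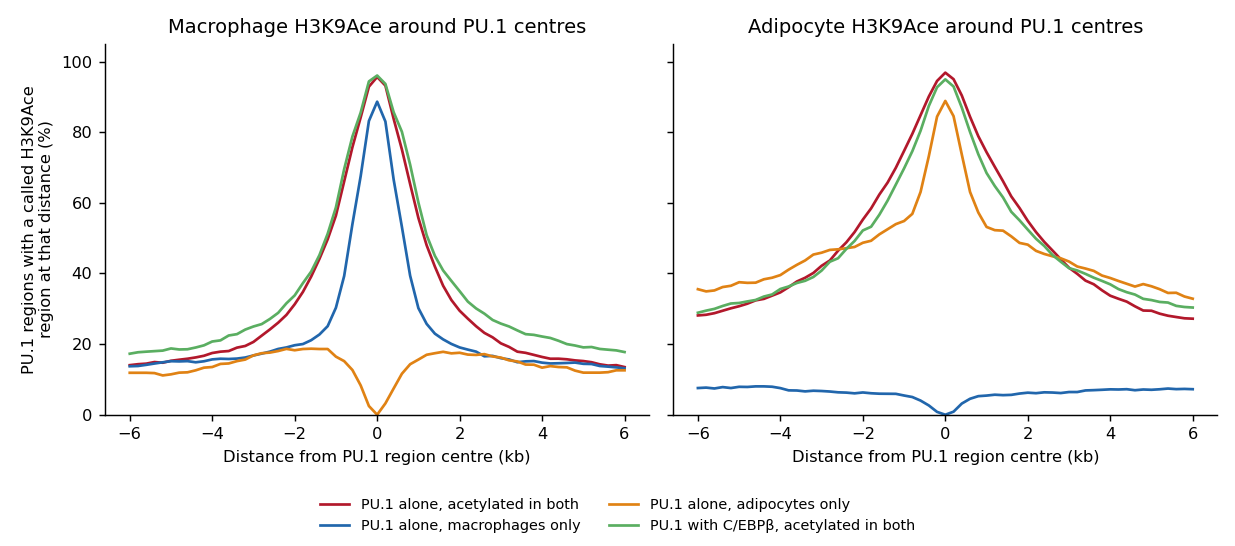
Share of PU.1 regions (y axis, percent) for which a called macrophage (left) or adipocyte (right) H3K9Ace region covers the point at a given distance from the PU.1 centre (x axis, kb), with PU.1-alone sites acetylated only in macrophages in blue, only in adipocytes in orange, and sites with C/EBPβ acetylated in both in green. At PU.1-alone sites acetylated in both cell types (red) the share falls from 95.7% at the centre to 30.4% at 2 kb in macrophages, and from 96.9% to 55.1% in adipocytes.

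Around the PU.1 centre, macrophage acetylation fell off faster than adipocyte acetylation. Counting the points on both sides of each site, the share covered by a macrophage domain went from 95.7% at the centre to 56.1% at 1 kb, 30.4% at 2 kb and 13.8% at 6 kb. Adipocyte domains covered 96.9% of centres, 74.5% of points at 1 kb, 55.1% at 2 kb and 27.7% at 6 kb. Sites acetylated only in macrophages dropped to 30.3% at 1 kb in macrophages, and their surroundings stayed low in adipocytes, at 5.43% at 1 kb and 7.39% at 6 kb. At 6 kb the macrophage profiles of these classes had met, at 13.8% and 13.4%. Adipocyte domains covered fewer points at 1 kb from sites acetylated only in adipocytes, 54.0%, but more at 6 kb, 34.2%. For sites with C/EBPβ acetylated in both cell types these shares were 69.1% and 29.6%. The adipocyte list also covered more of the autosomes than the macrophage list, as given above.

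PPARγ was rare at these sites in either cell type. In macrophages 91 of 6401 sites overlapped a region of the final PPARγ list, 1.42% (1.16 to 1.74), against 2.83% of all autosomal PU.1 regions. In adipocytes 45 sites did, 0.703% (0.526 to 0.939), against 0.556% of all. PPARγ was found in macrophages alone at 77 sites, in adipocytes alone at 31 and in both at 14, which left 6279 sites, 98.1%, with neither. The autosomal part of these lists holds 1924 macrophage and 2610 adipocyte regions. A longer macrophage list of 18128 autosomal regions and a combined adipocyte list of 12165, both deposited by the authors, gave higher shares, and they held PPARγ at all of the 91 and 45 sites. Regions of the combined list were wider, with a median of 899 bp against 260 bp in the final adipocyte list, so they meet an overlap of 1 bp more easily. Those of the longer macrophage list had a median of 213 bp, against 318 bp in the final one. The longer macrophage list lay at 603 sites, 9.42% (8.73 to 10.2), against 12.4% of all autosomal PU.1 regions, and the combined adipocyte list at 511 sites, 7.98% (7.34 to 8.67), against 3.93%. The whole set of PU.1 regions includes those with C/EBPβ, which the rule leaves out. Among the 26004 other PU.1-alone regions, macrophage PPARγ lay at 1.05% (0.937 to 1.19) by the final list and 5.88% by the longer one, so the sites were 0.368 percentage points (95% Newcombe interval 0.0746 to 0.709) and 3.54 points (2.79 to 4.34) above them. Adipocyte PPARγ lay at 0.138% and, by the combined list, 1.40% of these regions, 0.565 points (0.380 to 0.804) and 6.58 points (5.92 to 7.28) below the sites. Macrophage PPARγ at the sites was thus lower than at PU.1 regions at large and higher than at the other PU.1-alone regions taken as a whole, most of which were not acetylated. Against the 18862 regions acetylated in neither cell type, with 0.827%, the difference was 0.595 points (0.298 to 0.937).

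**Figure D5:**
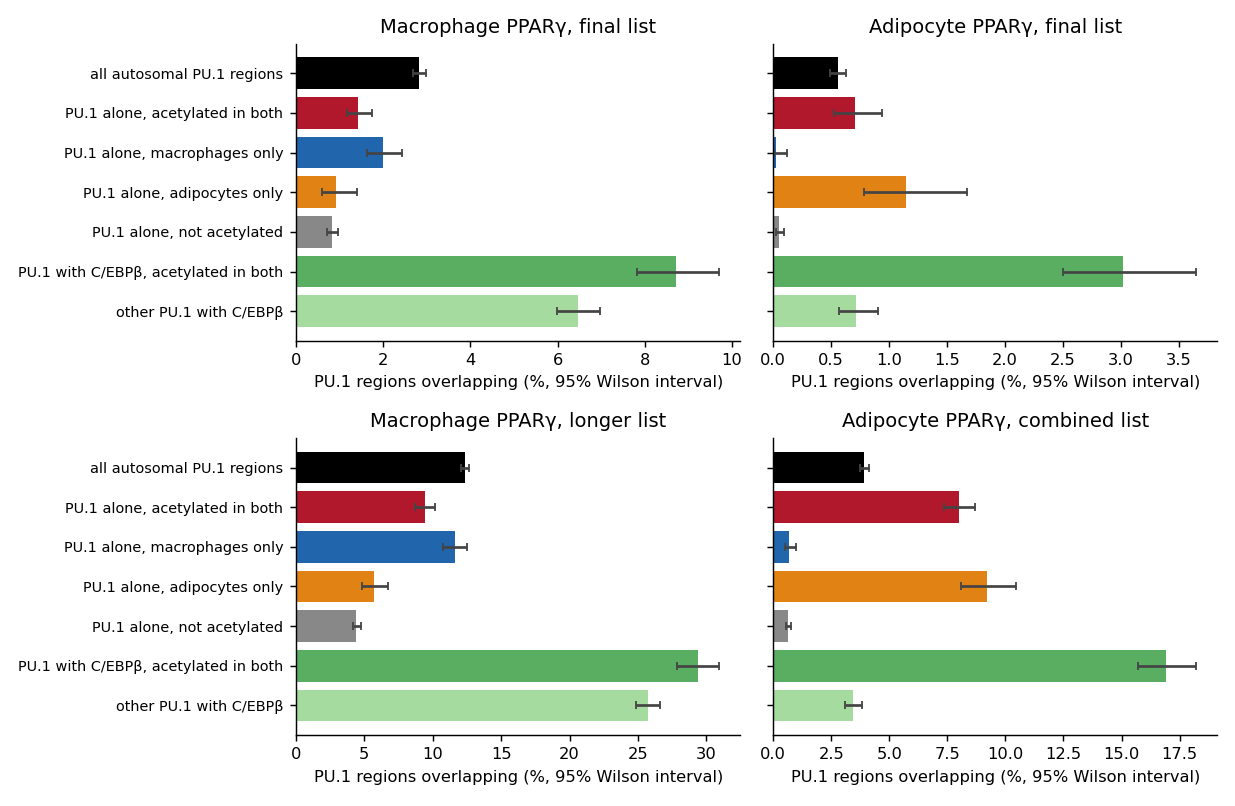
Share of PU.1 regions overlapping PPARγ (x axis, percent, bars from 0, with 95% Wilson intervals for counting error) by class of PU.1 region, named at the left, for the final and longer macrophage lists (left) and the final and combined adipocyte lists (right). PU.1-alone sites acetylated in both cell types (red) hold macrophage PPARγ in 1.42% and 9.42% of cases, below all autosomal PU.1 regions (black), and adipocyte PPARγ in 0.703% and 7.98%.

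The largest contrast in macrophage PPARγ was with sites that differed in C/EBPβ. Where PU.1 and C/EBPβ met in chromatin acetylated in both cell types, macrophage PPARγ lay at 297 of 3409 regions, 8.71% (7.81 to 9.71). The PU.1-alone sites differed from them by -7.29 points (-8.32 to -6.33). The difference lay between -9.89 and -6.15 points in the 4 classes of macrophage domain width and between -8.37 and -3.40 points in the 4 quartiles of PU.1 region width. PU.1 regions with C/EBPβ were themselves wider, as given above. With the longer macrophage list the shares were 9.42% and 29.4%.

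Acetylation in adipocytes went with a small difference in macrophage PPARγ. Sites acetylated only in macrophages had it in 97 of 4869 cases, 1.99% (1.64 to 2.42), and sites acetylated in both cell types differed by -0.571 points (-1.08 to -0.0913). The sign was not the same in all classes of domain width. The difference was 0.523 points under 1000 bp and -1.08, -0.445 and -0.501 points in the wider classes, and only the interval of the class from 1000 to under 2000 bp left out 0. With 1 site kept per macrophage domain the difference was -0.546 points and its interval reached just past 0. The longer list gave -2.18 points (-3.34 to -1.04). Within quartiles of PU.1 region width, from the narrowest, the difference was -0.0753, -0.676, -0.124 and -1.04 points by the final list, and all 4 intervals included 0.

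Adipocyte PPARγ was nearly absent where adipocyte acetylation was. It lay at 1 of 4869 sites acetylated only in macrophages, 0.0205% (0.00363 to 0.116), so sites acetylated in both cell types were 0.683 points higher (0.481 to 0.919). The combined list gave 0.698% and 7.98%. Sites acetylated only in adipocytes had adipocyte PPARγ in 26 of 2273 cases, 1.14% (0.782 to 1.67), and sites acetylated in both cell types differed from them by -0.441 points (-0.997 to -0.00849). This small difference was uncertain. It kept its sign in the 9 alternatives, but its interval included 0 in 7 of them. Among these were the combined list (-1.21 points, -2.62 to 0.104) and 1 site per domain (-0.272 points, -0.843 to 0.183). The interval left out 0 with PU.1 regions of at least the median width (-0.982 points, -2.20 to -0.158) and with centres within 1 kb (-1.67 points, -2.60 to -0.852). By adipocyte domain width the difference was -0.654, -0.559 and -1.51 points under 4000 bp and 0.0279 points from 4000 bp up. Regions with C/EBPβ acetylated in both cell types had more of it too, 3.02% (2.50 to 3.65), although C/EBPβ was mapped in macrophages only.

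Wider PU.1 regions carried macrophage PPARγ more often, though a wider region also offers more length on which an overlap of 1 bp can fall. How much this adds to the rise was not tested. Over the quartiles of PU.1 region width, from under 197 bp to 317 bp and above, the share at these sites rose from 0.554% to 0.723%, 1.61% and 2.76%, and with the longer macrophage list from 5.12% to 7.29%, 9.78% and 15.3%. For adipocyte PPARγ the shares were 0.415%, 0.603%, 0.403% and 1.41%, without a steady order. Domain width made less difference to macrophage PPARγ, with 1.71%, 1.53%, 1.29% and 1.47% from the narrowest to the widest macrophage domains. Adipocyte PPARγ was at 0.221%, 0.392%, 0.697% and 0.858% over the classes of adipocyte domain width, counts of 1, 3, 15 and 26 sites.

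PPARγ was also counted over whole domains, the site included. A macrophage PPARγ region lay anywhere in 4.05% (3.55 to 4.63) of the 5131 macrophage domains, and an adipocyte PPARγ region anywhere in 5.21% (4.62 to 5.86) of the 4934 adipocyte domains. Domains acetylated in both cell types without PU.1, which are narrower, held them in 1.09% and 3.10% of cases. Over all autosomal domains of each cell type, which are narrower too, the shares were 2.94% and 3.85%. Domains of the compared classes of sites held more. Macrophage PPARγ lay in 4.91% of macrophage domains of sites acetylated only in macrophages, and the intervals overlapped. Adipocyte PPARγ lay in 8.38% (7.3 to 9.6) of adipocyte domains of sites acetylated only in adipocytes. Both of these sets were narrower, with medians of 1100 and 2000 bp. For domains of sites with C/EBPβ acetylated in both cell types the shares were 11.4% and 8.2%. Measured between centres, 2.92% of sites had macrophage PPARγ within 1 kb and 10.6% within 10 kb, against 4.01% and 11.5% of all autosomal PU.1 regions. Adipocyte PPARγ was that near at 2.20% and 9.42% of sites, against 1.14% and 5.91% of all. The classes most like these sites had more of it nearby. For macrophage PPARγ, sites acetylated only in macrophages had 4.25% and 15.3%. For adipocyte PPARγ, sites acetylated only in adipocytes had 3.87% and 18.4%. Sites with C/EBPβ acetylated in both cell types had 11.1% and 21.2% for macrophage PPARγ, and 4.64% and 14.8% for adipocyte PPARγ.

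Overlap sets a limit on the distance between the centres of PPARγ and PU.1. The median distance between centres was 65 bp (41.5 to 88) for the 91 sites with macrophage PPARγ and 106 bp (68 to 143.5) for the 45 with adipocyte PPARγ. The 88 macrophage PPARγ regions concerned had a median fold of 6.27 (5.88 to 7.11), the authors' enrichment over a control they do not name, against 6.21 in the whole autosomal list. The 44 adipocyte PPARγ regions had 6.22 (5.6 to 7.08) against 6.39. By fold, PPARγ regions at these sites were thus like those of their lists.

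Position in the adipocyte domain was compared between sites with and without PPARγ. Sites with a region of the combined adipocyte list were in its central 50% in 68.5% of cases (64.3 to 72.4) and sites without in 58.9%, 9.65 points apart (5.31 to 13.7). The difference was positive in all 4 classes of adipocyte domain width, at 5.22, 12.3, 12.9 and 6.65 points, with intervals that included 0 in the 2 classes under 2000 bp. By the final adipocyte list, with 45 sites, it was 9.34 points and its interval (-5.26 to 20.98) included 0. Macrophage PPARγ went the other way, with 42 of 91 sites central in the adipocyte domain, 46.2% against 59.8%, a difference of -13.7 points (-23.6 to -3.39). By the longer list it was -6.13 points (-10.3 to -1.99), negative in all 4 width classes with intervals that each included 0. In the macrophage domain the intervals of all 4 such differences included 0. These are 8 comparisons of position, 1 for each of 4 PPARγ lists in each of 2 kinds of domain, and their intervals are not adjusted for that number.

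PPARγ of both cell types met at 14 of the sites, 15.4% of those with macrophage PPARγ and 31.1% of those with adipocyte PPARγ. Over all autosomal PU.1 regions these shares were 8.31% and 42.3%. The strongest of the 14 lay on chromosome 3 at 90339805 to 90340217, with a macrophage fold of 18.05 and an adipocyte fold of 11.4, at 0.196 of the length of a macrophage domain of 2100 bp and 0.152 of an adipocyte domain of 4350 bp. The site on chromosome 5 at 17347475 to 17348025 had folds of 13.97 and 10.03. On chromosome 17 at 33385998 to 33386209 the order was reversed, with a macrophage fold of 10.96 and the highest adipocyte fold of any of the sites, 17.1, and the adipocyte domain was 5.24 times as wide as the macrophage one. At 100335758 to 100336103 on chromosome 7 the folds were 11.2 and 5.04, and at 29220988 to 29221221 on chromosome 6 they were 11.2 and 6.13. The next were on chromosome 14 at 65101786 to 65102099 (9.39 and 7.51) and on chromosome 3 at 10196257 to 10196607 (7.11 and 10.25). The lowest of the 10 named here were 44884138 to 44884597 on chromosome 7, 19462378 to 19462643 on chromosome 14 and 45453387 to 45453577 on chromosome 13, with folds of 5.68 to 5.78 in macrophages and 5.32 to 5.48 in adipocytes. The adipocyte domain was the wider at all 10 of these sites, as it was at 78.8% of all 6401 sites.

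Of the 8 sites with the highest macrophage folds, 3 had no adipocyte PPARγ, and at these the adipocyte domain was the narrower. Over all 6401 sites it was the narrower at 20.1%. The first was 45277733 to 45277989 on chromosome 13, with a fold of 13.35 and a ratio of widths of 0.313. On chromosome 4, the site from 59457599 to 59458027 had a fold of 11.95 and a ratio of 0.471, and the one from 144175492 to 144175738, in the 20150 bp domain, a fold of 11.1. Of the 8 sites with the highest adipocyte folds, those without macrophage PPARγ were on chromosome 17 at 83992351 to 83992558 (fold 10.35, ratio 6.15) and chromosome 11 at 60654097 to 60654500 (fold 10.15, ratio 1.95). The site on chromosome 5 at 135992459 to 135992742 had an adipocyte fold of 11.2 and a macrophage fold of 5.16. These are single sites picked by their fold, with no test.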

How the data were processed

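The authors aligned 36 bp reads against mm8 using ELAND (at most 2 mismatches, unique best match), per the labels' protocols. Per the series design text, a mask removed regions of biased input ahead of the final lists. The mask was not used here. For the peak caller's settings, its control and the depth, nothing is stated. The authors deposited a fold per region as a linear ratio and a peak height as a signal in whole units for PPARγ, per the file headers, and positions alone for the other lists and the combined adipocyte list. Libraries were grouped by title and antibody field, although the description field names PPARγ for all 6.

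Overlaps, positions and intervals were computed with Python 3.11.15, numpy 2.4.6 and pandas 2.3.3, with code tested on simulated lists. The 20 repeated rows of the adipocyte H3K9Ace list were counted once. A site overlapping several domains took the one it overlapped most. Widths are end minus start. PU.1 positions are printed as deposited and domain starts 1 higher, as BED starts count from 0. Whether PU.1 starts count from 0 or 1 is not stated, and reading them from 1 leaves 6400 sites. Medians carry distribution-free 95% intervals, shares Wilson intervals and differences of shares Newcombe intervals. Named sites were those with the highest PPARγ folds (8 per cell type), PPARγ in both cell types (up to 10), the 3 widest domains per cell type, the 3 macrophage domains with most sites, and the 3 highest and 3 lowest ratios of width. Alternatives changed the overlap, the C/EBPβ distance, the joining of domains, the PU.1 width, the sites kept and the PPARγ list. The sites and comparisons were chosen with earlier results of these data known.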

Additional observations from a re-analysis of the deposited data

How the results depend on the processing

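No paired analysis was possible because each group has 1 library. Under 85 alternative values of 11 results, no difference changed direction, 51 values stayed within the 95% interval of the reported value (for the count, within 1.5 times) and 34 moved outside it. Counting acetylation only where the domain covered at least 50% of the PU.1 region, or only where it held the PU.1 centre, gave a median macrophage width of 2450 bp in each, 61.6% of sites central in macrophage domains in each, and 62.5% in adipocyte domains in each. Counting C/EBPβ within 1 kb as present, which moves such sites into the class with C/EBPβ, gave 2250 bp, a ratio of widths of 1.54 and a difference in macrophage PPARγ between the classes of -5.08 points. With 1 site per macrophage domain the widths were 2200 and 3600 bp. Joining domains less than 1 kb apart gave 2850 and 5200 bp, a ratio of 1.69 and 56.95% central in macrophages. PU.1 regions of at least the median width left 3297 sites, 59.9% of them central in macrophages and 2.15% with macrophage PPARγ. Leaving out sites in adipocyte domains over 10 kb, gave 2300 and 3500 bp and a ratio of 1.40. That alternative, and reading PU.1 starts from 1, were chosen after seeing the data.

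PPARγ shares depended most on the list. The longer macrophage list gave 9.42%, and differences of -2.18 points from sites acetylated only in macrophages and -19.97 points from sites with C/EBPβ. The combined adipocyte list gave 7.98%, and -1.21 points from sites acetylated only in adipocytes. A fold of at least 8 gave 0.406% and 0.156%, with differences of -0.0867 and -2.32 points for macrophage PPARγ. Centres within 1 kb gave 2.92% and 2.20%, with differences of -1.33 points for macrophage and -1.67 points for adipocyte PPARγ against sites acetylated in the same cell type only. The interval of the small difference from sites acetylated only in macrophages included 0 with 1 site per domain, with wide PU.1 regions and with a fold of at least 8. That from sites acetylated only in adipocytes included 0 in 7 of its 9 alternatives. What depth limits could not be set, since it is unknown.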
